A study of Arabidopsis thaliana with 18 samples.

Results

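Oxidative and nutrient stress were set directly against each other in *pad2-1*, an Arabidopsis mutant that is low in glutathione. The 3 arrays of MV-treated *pad2-1* plants were compared with the 3 arrays of *pad2-1* plants under phosphate limitation (P-lim). The arrays were chosen by sample title, and they are 6 of the 18 arrays of the series. All 22746 probe sets of the Affymetrix ATH1 array were tested, without the 64 AFFX control sets. *pad2-1* carries a mutation in *GSH1*, the gene of the first enzyme of glutathione synthesis, in the Columbia background, and no other *GSH1* allele was on these arrays. The MV arrays came from plants on Murashige and Skoog medium with methyl viologen (MV), which the labels give as 0.05 M and the methods as the same number in micromolar. The P-lim arrays came from plants on medium with 20% of the usual phosphate. Aerial parts were harvested at 18 days in every group, and the methods use 1 biological replicate for each array. WT (Col-0) plants under the same stresses, and unstressed plants of both genotypes on normal medium, had 3 arrays each. For stressed WT plants the sample descriptions name normal medium, so those arrays were placed by title and treatment label.

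MV takes electrons from photosystem I and hands them to oxygen, which forms superoxide in chloroplasts. Plants remove the hydrogen peroxide that follows with ascorbate peroxidases, among other enzymes, and glutathione feeds electrons into that cycle. Phosphate shortage calls on genes for phosphate uptake, recycling and lipid exchange, and it is also known to interact with iron nutrition, since phosphate binds iron.

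The values are log2 intensities normalized together by RMA, so a step of 1 is a doubling. Within a group the arrays correlated at 0.9964 to 0.9984 over all probe sets, and the median of an array lay between 5.893 and 5.972. The 3′ minus 5′ signal of the actin control probe sets ranged from 0.903 to 1.11 over the 18 arrays, with the *pad2-1* MV arrays at 0.959 to 1.11 and the *pad2-1* P-lim arrays at 0.935 to 1.06. The leaf marker *RCA* (Rubisco activase) was at 13.29, 13.26 and 13.24 under MV and at 13.19, 13.16 and 13.23 under P-lim. The root hair expansin gene *EXPA7* was at 4.29, 4.4 and 4.34 and at 4.22, 4.36 and 4.38, and neither marker passed the test between the stresses. Of 12 listed inflorescence and flower markers only *AGL24* was measured by name. It was at 6.86, 6.68 and 6.76 under MV and at 6.78, 6.90 and 6.90 under P-lim, and did not pass (adjusted p = 0.42 from limma). With so few markers, a difference in tissue or stage could be missed. *GSH1* has no value under its own name here, and neither labels nor files give a batch.

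In a limma fit of 6 group means to all 18 arrays, 971 probe sets (4.27% of those tested) were higher in MV-treated than in P-lim *pad2-1* plants and 1190 (5.23%) were lower, at an adjusted p under 0.05 (9.5% in either direction). With a log2 difference of 1 or more, the threshold of the study, 59 (0.259%) were higher and 93 (0.409%) were lower (0.668% in either direction). The arrays of one stress lay fully apart from those of the other for 150 of these 152, against 25.6% of all probe sets. The calls were made on the same arrays and favour such separation, so this count is no further support for them. The counts at the adjusted p alone fell to 601 and 747 without MV replicate 2, and the higher count fell to 631 without P-lim replicate 3. With only the 6 arrays compared in the fit they were 645 and 787.

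Of 5 measured genes of the iron and copper list (37 listed), 3 were higher under MV and 0 lower, beside 4.27% of all probe sets higher. The list median was 2.70, the value of *PYE*, against -0.0117 over all probe sets. Like all lists here, this one was chosen with earlier results of these data known. The count and the median therefore describe these few genes and are no independent result on iron genes. In whole aerial parts, fewer cells of a type and less RNA per cell cannot be told apart.

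The locus AT1G47400, which that list holds and the annotation used here leaves without a name, had values of 9.84, 10.36 and 10.34 in the MV arrays and of 3.02, 2.67 and 3.67 in the P-lim arrays. The P-lim arrays were thus near or below the lower quartile of all values on an array (3.80 to 3.91). The difference was 7.06 (standard error 0.21, adjusted p = 2.06e-13 from limma), and unstressed *pad2-1* plants, at 10.08, 9.83 and 10.01, were close to the MV arrays.

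*BHLH101* (AT5G04150), a transcription factor of the iron deficiency response, was at 6.69, 7.46 and 7.5 under MV and at 3.45, 3.32 and 3.41 under P-lim. No P-lim array came near any MV array (difference 3.82, standard error 0.19, adjusted p = 2.47e-10 from limma). *PYE* (AT3G47640, POPEYE), a related factor known from the iron response of roots, was at 8.07, 8.14 and 8.28 under MV and at 5.34, 5.43 and 5.63 under P-lim. Its difference was 2.70 (standard error 0.12, adjusted p = 5.51e-11 from limma). The other measured members, the transporter gene *ZIP9* and the metallothionein gene *MT1C*, had differences of 0.15 and -0.03 and did not pass. Of 7 measured basic helix-loop-helix genes named as such, a count that leaves out *PYE*, *BHLH101* alone was called. The genes *ILR3*, *bHLH104*, *bHLH115*, *bHLH34* and *bHLH121*, which also belong to iron regulation, did not pass.

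Against unstressed *pad2-1* plants, from the same fit, P-lim differed by -6.85 for AT1G47400, -4.14 for *BHLH101* and -2.17 for *PYE*, and MV by 0.21, -0.31 and 0.52. These values share the control arrays. Of the MV values, that of *PYE* alone passed the test (adjusted p = 0.00861 from limma). In WT the same genes differed between MV and P-lim by 6.14, 3.02 and 2.25, and the genotype difference did not pass for any of them (adjusted p = 0.143, 0.16 and 0.219 from limma). Each of the 3 *pad2-1* calls held when any of the 6 arrays was left out.

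**Figure D1:**
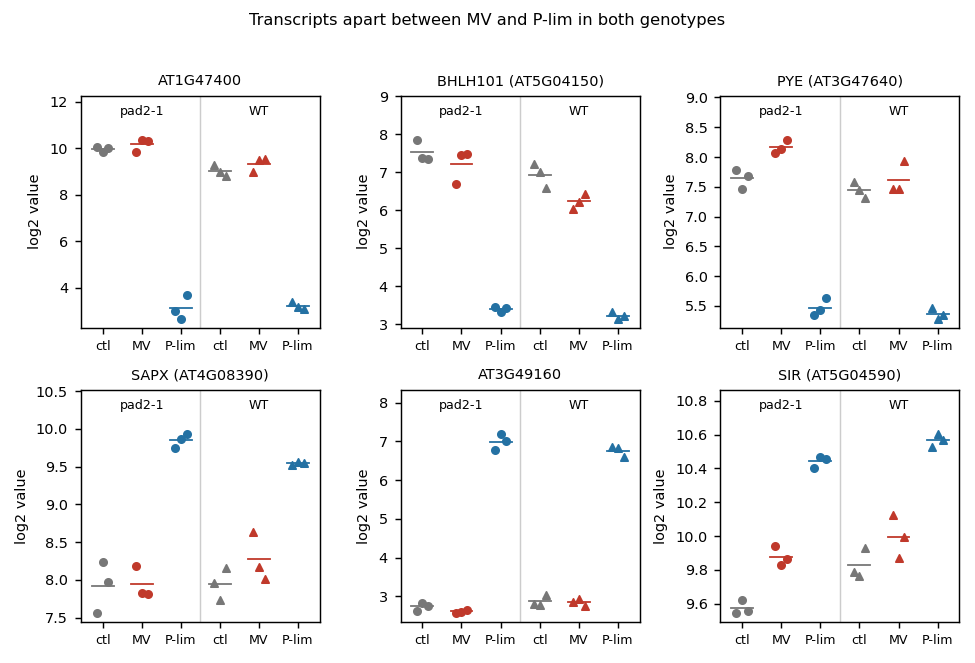
Log2 values per array (y axis) of 6 genes in unstressed (ctl), MV-treated and P-lim plants of *pad2-1* (circles) and WT (triangles), with lines at group means. AT1G47400, *BHLH101* and *PYE* were low in all P-lim arrays of both genotypes, whereas *SAPX*, AT3G49160 and *SIR* were highest there.

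Loci without a name in the annotation followed the same course. AT5G05250 was at 10.06, 10.40 and 10.34 under MV, at 5.2, 4.47 and 4.83 under P-lim and at 9.86, 9.65 and 9.82 without stress (MV against P-lim 5.43, standard error 0.16, adjusted p = 2.77e-13 from limma). AT3G56360 was at 10.56, 10.74 and 10.66 under MV, at 7.35, 6.52 and 6.71 under P-lim and at 10.49, 10.30 and 10.42 without stress (3.79, standard error 0.16, adjusted p = 3.65e-11 from limma). For both, the MV arrays lay with or just above the unstressed arrays and the P-lim arrays stood far below. An unnamed probe set had a difference of 4.4, with 9.21, 9.71 and 9.6 under MV, 4.94, 5.18 and 5.19 under P-lim and 9.49, 9.03 and 9.09 without stress.

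Other transcripts were lower under P-lim, with 1 P-lim array less so. AT5G22430 was at 7.75, 7.67 and 7.70 under MV and at 4.03, 4.33 and 6.01 under P-lim (2.92, standard error 0.45, adjusted p = 0.00035 from limma). AT2G20870 was at 8.51, 8.46 and 8.61 and at 5.68, 5.33 and 6.87 (2.57, adjusted p = 0.000373 from limma), and *RXF26* (AT1G58430) at 6.13, 6.20 and 6.06 and at 3.87, 4.02 and 4.44 (2.02, adjusted p = 8.64e-05 from limma). P-lim replicate 3 was the highest of its group for each of these, and so was the P-lim array with that number in WT, although the MV and P-lim arrays did not overlap. AT1G12030 was ordered differently, with 7.20, 7.86 and 7.66 under MV, 6.73, 6.5 and 6.44 without stress and 5.70, 5.31 and 5.42 under P-lim, so that the unstressed arrays lay between the stresses (2.09, standard error 0.19, adjusted p = 9.97e-07 from limma).

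Transcripts higher under P-lim were led among named genes by AT3G49160. It was at 6.77, 7.18 and 7.01 in the P-lim arrays and at 2.57, 2.61 and 2.66 in the MV arrays, below the lower quartile of an array. The difference of -4.37 (standard error 0.10) had the smallest adjusted p of the genes named here (4.52e-15 from limma), and unstressed plants, at 2.62, 2.84 and 2.76, lay with MV. In WT the difference was -3.92, and the genotype difference did not pass (adjusted p = 0.127 from limma). AT3G43670 was at 7.13, 7.23 and 7.30 under P-lim, at 5.13, 4.02 and 4.08 under MV and at 4.11, 4.93 and 4.11 without stress (-2.81, standard error 0.24, adjusted p = 7.93e-07 from limma). AT5G59400 had the same order, with a difference of -1.68 (adjusted p = 5.05e-07 from limma). An unnamed probe set was at 12.23, 12.67 and 12.76 under P-lim and at 8.25, 7.07 and 7.74 under MV, a difference of -4.87.

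None of the few antioxidant genes measured by name was called higher under MV, the oxidative treatment. Of 8 measured members (42 listed), 2 were higher under P-lim (25%, beside 5.23% of all probe sets) and 0 under MV, and the list median was -0.0491. No listed catalase or superoxide dismutase gene was measured by name, so the class as a whole was not covered. *SAPX* (AT4G08390), a stromal ascorbate peroxidase, was at 9.75, 9.87 and 9.93 under P-lim and at 8.19, 7.83 and 7.81 under MV. Unstressed plants, at 7.57, 8.23 and 7.97, overlapped with the MV arrays. The difference was -1.91 in *pad2-1* (standard error 0.16, adjusted p = 5.6e-07 from limma) and -1.27 in WT (adjusted p = 3.61e-05 from limma). The thylakoid ascorbate peroxidase gene *TAPX* had a difference of 0.08 that did not pass (95% interval -0.0350 to 0.187).

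The glutathione reductase gene *GR1* (AT3G24170) differed by -0.22 (adjusted p = 0.0365 from limma), with 8.79, 8.89 and 8.76 under MV and 8.94, 9.09 and 9.07 under P-lim. This call was lost without MV replicate 1 or 3 and without P-lim replicate 2 or 3, with an adjusted p of up to 0.131, in the fit of the 6 arrays alone (0.0907) and with the replicate number as a block (0.0519). The other members, among them the superoxide dismutase chaperone gene *CCS* and the sulfiredoxin gene *SRX*, did not pass.

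Sulfur assimilation supplies the cysteine for glutathione, and 3 of 7 measured genes of that list were higher under P-lim (42.9%, beside 5.23% of all probe sets), with a median of -0.519. None was higher under MV. *SIR* (AT5G04590), the sulfite reductase, was at 10.40, 10.47 and 10.46 under P-lim, at 9.94, 9.83 and 9.87 under MV and at 9.55, 9.62 and 9.55 without stress. The conditions did not overlap, with MV between the others. The difference between the stresses was -0.56 in *pad2-1* (standard error 0.06, adjusted p = 1.43e-05 from limma) and -0.57 in WT.

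*APS4* (AT5G43780), an ATP sulfurylase at the first step of sulfate assimilation, was at 7.29, 6.99 and 7.10 under P-lim, at 6.63, 6.69 and 6.5 under MV and at 7.67, 7.67 and 7.66 without stress, so that both stresses lay below the unstressed arrays. Its difference was -0.52 in *pad2-1* (adjusted p = 0.00165) and -1.14 in WT (adjusted p = 3.85e-07, both from limma). The genotype difference of 0.62 (adjusted p = 0.0305 from limma) was lost without any 1 of 6 arrays, namely *pad2-1* MV replicates 1 and 2 and P-lim replicates 2 and 3 of either genotype, with an adjusted p of up to 0.0908, and with only the 12 compared arrays in the fit (0.0781). *BGLU28* (AT2G44460), a beta-glucosidase gene known from sulfur deficiency, was at 8.37, 8.10 and 8.75 under P-lim, at 6.85, 6.31 and 6.59 under MV and at 4.80, 5.91 and 5.62 without stress. The conditions did not overlap for *BGLU28* either (MV against P-lim -1.82, standard error 0.25, adjusted p = 0.000124 from limma). *APS3*, a second ATP sulfurylase gene, had a difference of 0.18 that did not pass.

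Some loci were raised by both stresses, and more so under P-lim. AT5G20790 was at 8.82, 10.05 and 9.69 under P-lim, at 7.92, 7.03 and 7.68 under MV and at 6.39, 5.89 and 5.72 without stress (-1.98, standard error 0.42, adjusted p = 0.00536 from limma). AT1G23140 was at 6.96, 7.67 and 7.58, at 6.20, 5.32 and 5.82 and at 4.61, 4.76 and 4.53 in the same order (-1.62, standard error 0.22, adjusted p = 0.000104 from limma). In both, the unstressed arrays were the lowest, and MV passed the test against them (adjusted p = 0.0295 and 0.0024 from limma). Other loci were lower under MV than in both other conditions. AT2G05540 was at 7.18, 6.996 and 7.06 under MV, at 8.36, 8.61 and 8.76 under P-lim and at 8.62, 8.34 and 8.08 without stress (-1.50, standard error 0.15, adjusted p = 3.58e-06 from limma). AT1G10585 and AT3G04000, with differences of -2.20 and -1.50, had the MV arrays below all P-lim and unstressed arrays as well.

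Several genes higher under P-lim were uneven among the P-lim arrays. *PRX71* (AT5G64120), a class III peroxidase of the cell wall, was at 4.78, 6.65 and 6.71 under P-lim and at 4.04, 4.08 and 3.97 under MV (-2.02, standard error 0.45, adjusted p = 0.00714 from limma). *OSM34* (AT4G11650, osmotin) was at 5.34, 6.32 and 6.74 under P-lim and at 5.03, 3.51 and 5.23 under MV, and its call (-1.54, adjusted p = 0.0394 from limma) was lost without MV replicate 2 (0.21) and without P-lim replicate 2 or 3 (0.12 and 0.163). It was also lost with the 6 compared arrays alone (0.0743), with trend and robust variance estimation (0.0997) and with the replicate block (0.0601). P-lim replicate 1 was the lowest of its group in both. It was also the lowest for AT3G43110, at 4.53, 6.54 and 5.91 under P-lim (-1.97, adjusted p = 0.000608 from limma), and for AT4G12490, at 4.91, 6.39 and 6.64. The call of AT4G12490, whose arrays overlapped with those under MV (4.16, 5.04 and 3.70), was lost without MV replicate 3 and without P-lim replicate 2 or 3 (-1.68, adjusted p = 0.0129, up to 0.0769, from limma), and with the 6 compared arrays alone (0.0511). The other 4 measured genes named as class III peroxidases did not pass. Members of that family without such a name in the annotation were not counted.

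The position of unstressed *pad2-1* plants was described for the probe sets with a log2 difference of 1 or more. Among the 93 that were higher under P-lim, the mean of the unstressed arrays was nearer to MV in 77 and nearer to P-lim in 16. Among the 59 that were higher under MV, it was nearer to MV in 45 and nearer to P-lim in 14. It lay between the stress means in 51 of the 59 and in 46 of the 93, and below both in 44 of the 93. No test was made of these counts, in which the unstressed arrays are set beside both stresses.

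WT plants gave the same contrast on other arrays. There, 58 probe sets were higher under MV (0.255% of those tested) and 70 were lower (0.308%) with a log2 difference of 1 or more, 0.563% in either direction. Of those higher under MV, 32 were shared, which is 54.2% of the *pad2-1* calls and 55.2% of the WT calls. Of those higher under P-lim, 32 were shared, which is 34.4% of the *pad2-1* calls and 45.7% of the WT calls. At the adjusted p alone, 43 of the 59 and 57 of the 93 were called in the same direction in WT. At that threshold WT had 1501 probe sets higher (6.6%) and 1039 lower (4.57%), 11.2% in either direction, and 1014 higher and 1757 lower after each array was shifted to the same median. The difference between the genotypes itself passed for 296 probe sets (1.3% of those tested), of which 8 were among the 59 and 13 among the 93. In 107 of them (0.47%) MV minus P-lim was greater in *pad2-1* and in 189 (0.831%) smaller, which became 163 and 124 with the same shift. With a genotype difference of 1 or more, 13 (0.0572%) were greater and 30 (0.132%) smaller, 0.189% in either direction. These counts turned on single arrays. The 107 and 189 were 49 and 86 without WT P-lim replicate 3, 54 and 98 without WT P-lim replicate 1, 53 and 91 without *pad2-1* MV replicate 2, 53 and 115 without *pad2-1* MV replicate 3, and 51 and 93 without *pad2-1* P-lim replicate 2. The 107 were 60 without WT MV replicate 2 and 62 without WT P-lim replicate 2. The 13 were 25, 8 and 20 without *pad2-1* MV replicate 1, MV replicate 3 and P-lim replicate 3, and the 30 were 16, 52 and 19 without *pad2-1* MV replicate 2, *pad2-1* P-lim replicate 1 and WT P-lim replicate 2. The 1501 of WT were 978 without WT P-lim replicate 1.

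**Figure D2:**
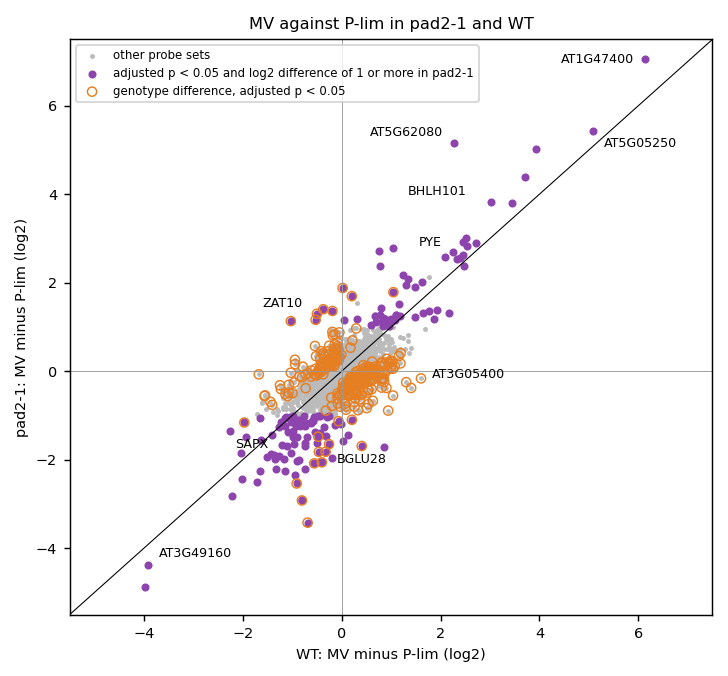
Difference of MV minus P-lim (log2) in *pad2-1* (y axis) against that in WT (x axis) for all 22746 probe sets, with the line of equality. Purple points are the 152 probe sets with an adjusted p under 0.05 and a difference of 1 or more in *pad2-1*, orange rings the 296 with an adjusted p under 0.05 for the genotype difference, and AT1G47400 (7.06 and 6.14) lies at the upper end of both axes.

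A set of transcripts was high under MV and low under P-lim, but uneven among unstressed arrays. Whether their differences follow the stress or the tissue or stage of the plants was not tested. The 3 unstressed *pad2-1* arrays spanned more than 2 log2 units for 8 probe sets, a limit set after the values were seen. Of these, 5 name a gene, and all 5 are among the 15 named probe sets with the largest differences in favour of MV. AT5G62080 was at 8.65, 8.32 and 8.92 under MV and at 3.37, 3.57 and 3.48 under P-lim. Unstressed *pad2-1* plants were at 4.80, 4.07 and 8.79, so that replicate 3 reached the MV values and the others did not. In WT the MV arrays were at 3.66, 6.73 and 6.77, the P-lim arrays at 3.48, 3.32 and 3.53 and the unstressed arrays at 7.08, 3.44 and 8.88. The difference of 5.16 in *pad2-1* (standard error 1.16, adjusted p = 0.00762 from limma) was tested against a spread that includes the unstressed arrays, and with the 6 compared arrays alone in the fit the adjusted p was 6.31e-08.

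AT5G52160 was at 6.20, 6.06 and 6.20 under MV, at 3.38, 3.25 and 3.49 under P-lim and at 3.82, 3.35 and 6.56 without stress. AT3G07450, AT3G52130 and AT5G07230 had differences of 2.72, 2.38 and 2.17 (adjusted p = 0.01, 0.0224 and 0.0452 from limma). Unstressed replicate 3 was the highest of its group for all 5 genes in *pad2-1*, and unstressed replicate 3 of WT likewise. The call of AT3G52130 was lost when any 1 of the 6 arrays was left out (adjusted p = 0.0511 to 0.0704), and that of AT5G07230 without any of them except MV replicate 2 (up to 0.165). With trend and robust variance estimation neither was called (adjusted p = 0.0678 and 0.111 from limma), and with the replicate block AT5G07230 was not (0.0581). The genotype difference did not pass for any of the 5. AT1G44970 was spread under MV as well, at 6.57, 5.74 and 5.10, against 3.03, 3.08 and 3.39 under P-lim and 5.09, 5.18 and 6.72 without stress (2.63, standard error 0.58, adjusted p = 0.00714 from limma).

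**Figure D3:**
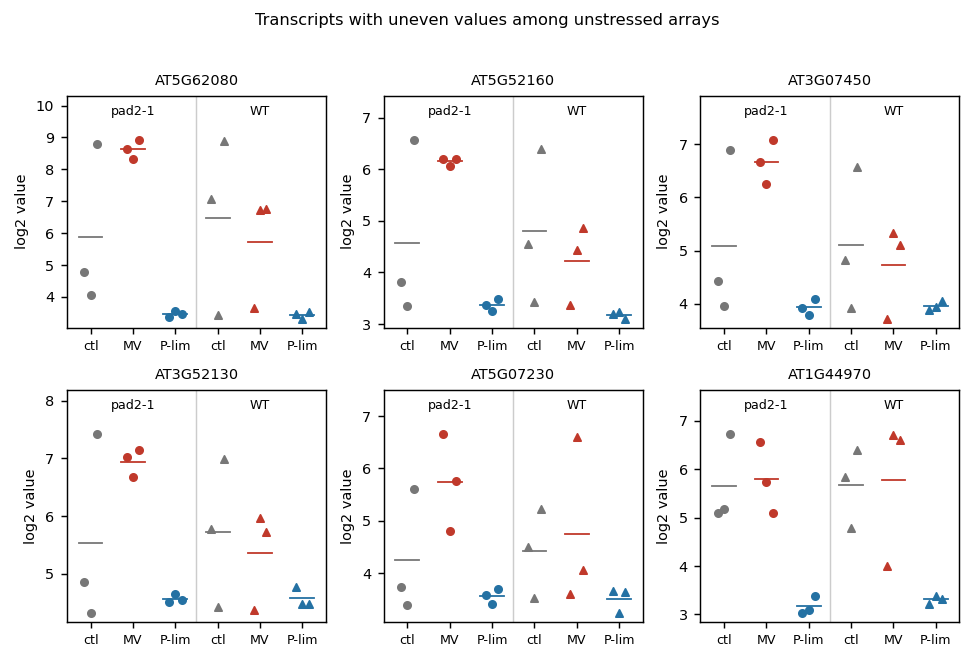
Log2 values per array (y axis) of AT5G62080, AT5G52160, AT3G07450, AT3G52130, AT5G07230 and AT1G44970 in unstressed (ctl), MV-treated and P-lim plants of *pad2-1* (circles) and WT (triangles), with lines at group means. P-lim arrays were low and *pad2-1* MV arrays high, while unstressed arrays and WT MV arrays were spread, and some of them reached or passed *pad2-1* MV values.

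Transcripts whose difference between MV and P-lim was not the same in both genotypes included stress-related transcription factors. *ZAT10* (AT1G27730, also STZ), a zinc finger repressor induced by many stresses, was at 6.62, 7.14 and 7.59 under MV and at 5.39, 5.63 and 6.43 under P-lim in *pad2-1*. Unstressed *pad2-1* plants, at 7.08, 7.14 and 6.92, were within the MV range and above the P-lim arrays. In WT the MV arrays were at 3.997, 4.32 and 4.51 and the P-lim arrays at 4.90, 4.51 and 4.92, and unstressed plants, at 6.11, 5.74 and 6.13, were above both. The difference between MV and P-lim was 1.3 in *pad2-1* (standard error 0.24, adjusted p = 0.00145) and -0.50 in WT (adjusted p = 0.206), and the genotype difference was 1.8 (adjusted p = 0.013, all from limma).

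AT4G27280 was at 8.46, 9.08 and 9.17 under MV, at 7.38, 7.23 and 7.89 under P-lim and at 10.01, 10.10 and 10.06 without stress in *pad2-1*. Its genotype difference was 1.77 (adjusted p = 0.00265 from limma). *ORA47* (AT1G74930), an AP2/ERF factor linked to jasmonate responses, was at 5.59, 5.995 and 6.86 under MV and at 4.83, 5.07 and 5.05 under P-lim, where the unstressed arrays also were (4.96, 5.25 and 5.27). In WT its MV arrays were instead the lowest, at 4.58, 4.83 and 4.67, and the genotype difference was 1.69 (adjusted p = 0.00953 from limma). *ERF6* (AT4G17490), a factor of early stress responses, was higher under MV in *pad2-1* by 0.77 (adjusted p = 0.023 from limma). This call was lost without MV replicate 3 or P-lim replicate 2 or 3 (up to 0.119), with the 6 compared arrays alone (0.0633) and with trend and robust variance estimation (0.0586), and its genotype difference did not pass (adjusted p = 0.216 from limma). None of 8 measured WRKY genes was called.

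AT5G17340 was at 5.28, 5.01 and 5.50 under P-lim, at 3.68, 3.52 and 3.65 under MV and at 3.39, 3.53 and 3.58 without stress in *pad2-1*. The WT P-lim arrays, at 4.28, 3.60 and 3.85, overlapped with the WT MV arrays at 3.62, 3.81 and 3.53. The genotype difference was -1.39 (adjusted p = 0.00265 from limma). That of *BGLU28* was -1.49 with an adjusted p of 0.0477 from limma, which was lost without any 1 of 10 of the 12 arrays of both contrasts (up to 0.129), all except *pad2-1* MV replicate 1 and WT P-lim replicate 3. It was also lost with trend and robust estimation (0.108), with arrays shifted to the same median (0.0582), with quantile normalization (0.0548) and with the replicate block (0.0551). An unnamed probe set had a difference of -3.42 in *pad2-1* and -0.69 in WT, and its genotype difference of -2.73 passed (adjusted p = 0.011 from limma).

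AT3G05400 was at 7.42, 7.26 and 7.49 under MV and at 7.70, 7.36 and 7.59 under P-lim in *pad2-1*, both above the unstressed arrays at 6.33, 6.58 and 6.45. In WT the MV arrays were at 7.59, 8.51 and 7.46, whereas the P-lim arrays, at 6.13, 6.29 and 6.31, lay near the unstressed arrays at 6.14, 6.13 and 6.23. The difference between MV and P-lim was -0.16 in *pad2-1* (adjusted p = 0.662) and 1.60 in WT (adjusted p = 1.06e-05, both from limma), and the genotype difference was -1.77. AT3G19030 was called in WT only by its own test (-0.94, against 0.16 in *pad2-1*), and its genotype difference of 1.1 passed (adjusted p = 0.00352 from limma). The genotype differences of *ZAT10*, AT4G27280, *ORA47*, AT5G17340, AT3G05400 and AT3G19030 passed without any 1 of the 12 arrays.

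**Figure D4:**
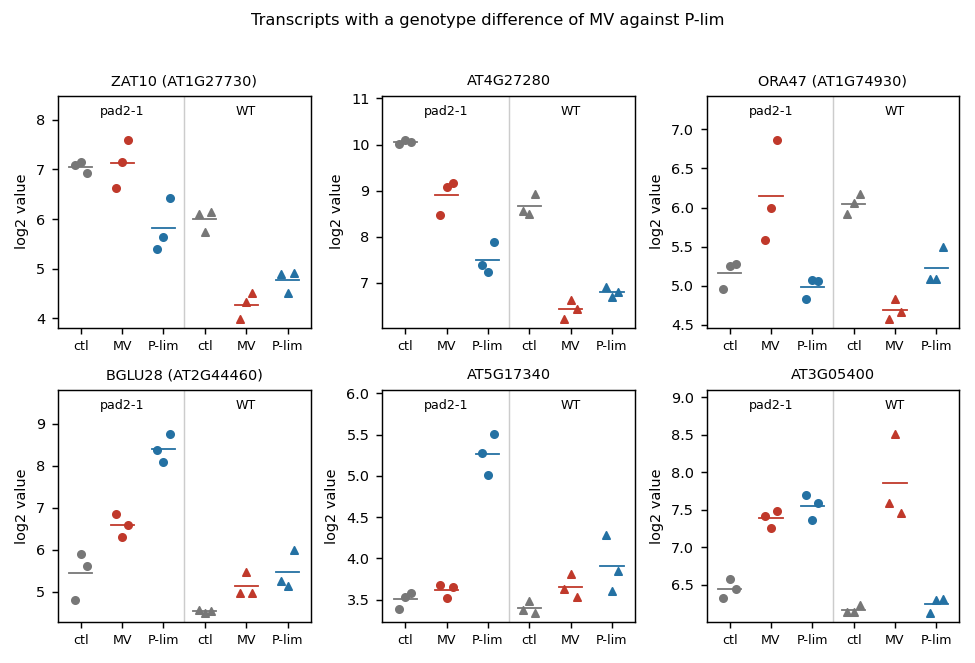
Log2 values per array (y axis) of *ZAT10*, AT4G27280, *ORA47*, *BGLU28*, AT5G17340 and AT3G05400 in unstressed (ctl), MV-treated and P-lim plants of *pad2-1* (circles) and WT (triangles), with lines at group means. MV minus P-lim differed between the genotypes by 1.8, 1.77, 1.69, -1.49, -1.39 and -1.77.

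Genes of cell wall loosening were called more often for MV. Of 29 measured xyloglucan endotransglucosylases and expansins, 7 (24.1%) were higher under MV, beside 4.27% of all probe sets, and 2 (6.9%) were higher under P-lim. Their median was 0.0202, and the count of 7 was 4 without P-lim replicate 3. The expansin gene *EXPA8* (AT2G40610) was at 9.21, 9.26 and 9.39 under MV and at 8.48, 8.38 and 8.36 under P-lim (0.88, standard error 0.10, adjusted p = 1.69e-05 from limma), and unstressed plants, at 9.54, 9.08 and 9.33, were with MV. *EXPA4* and *EXPA15* were higher under MV by 0.55 and 0.45 (adjusted p = 0.000432 and 0.00181 from limma). For *EXPA4* the unstressed arrays, at 8.07, 8.41 and 8.50, were instead with P-lim (8.38, 8.46 and 8.41). *XTH27* (AT2G01850) went the other way, with 9.57, 9.57 and 9.66 under P-lim, 8.74, 8.67 and 8.81 under MV and 9.48, 9.49 and 9.35 without stress (-0.86, standard error 0.08, adjusted p = 9.53e-07 from limma). In WT 6 of the 29 were higher under MV, beside 6.6% of all probe sets, and 2 under P-lim, beside 4.57%.

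UDP-glycosyltransferases, which attach sugars to hormones, phenolics and foreign compounds, were called more often for P-lim. Of 51 measured, 13 (25.5%) were higher under P-lim, beside 5.23% of all probe sets, and 2 (3.92%) were higher under MV. The median was -0.0824, and the count of 13 was 7 without P-lim replicate 3. *UGT74D1* (AT2G31750) was at 9.18, 9.31 and 9.22 under P-lim, at 8.67, 8.52 and 8.69 under MV and at 8.15, 8.46 and 8.24 without stress, in that order without overlap (-0.61, standard error 0.09, adjusted p = 0.0003 from limma). *UGT88A1* and *UGT87A2* had differences of -0.38 and -0.65 (adjusted p = 0.000471 and 0.000883 from limma). *UGT73C1* was at 4.95, 5.03 and 5.25 under P-lim and at 5.41, 5.54 and 4.53 without stress, and lower under MV, at 4.01, 3.96 and 4.30 (-0.99, adjusted p = 0.00187 from limma). In WT 7 of the 51 were higher under P-lim, beside 4.57% of all probe sets, and 2 under MV, beside 6.6%. Of 14 glutathione transferases, which join glutathione to toxic compounds, *GSTU16* alone was called (-0.32, adjusted p = 0.0163 from limma), and it was lost without replicate 2 or 3 of either stress (up to 0.0853) and with the 6 compared arrays alone (0.0519).

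Of 69 measured genes encoded in the plastid genome, 9 (13%) were called lower under MV than under P-lim in *pad2-1*, beside 5.23% of all probe sets, 0 were called higher and 60 did not pass. The median was -0.132, and 59 of the 69 values were below 0, against 54.1% of all probe sets. In WT the median was 0.0789, with 12 of 69 below 0, against 48.6% of all probe sets, and 2 called higher under MV, beside 6.6%. The genes *petL*, *petG* and *petN* of small subunits of the cytochrome b6f complex, which passes electrons between the photosystems, had differences of -0.88, -0.78 and -0.63 (adjusted p = 0.0027, 0.00339 and 0.00148 from limma). *petL* was at 8.29, 8.39 and 8.64 under MV, at 9.54, 9.28 and 9.14 under P-lim and at 9.63, 9.63 and 9.41 without stress, so that the MV arrays stood apart. *accD*, for a subunit of the plastid acetyl-CoA carboxylase of fatty acid synthesis, differed by -0.47 (adjusted p = 0.00436 from limma). The genotype difference passed for *petL* and *accD* (adjusted p = 0.0198 and 0.0202 from limma) and not for *petG* and *petN* (0.132 and 0.0805). The calls of *petL* and *accD* were lost without MV replicate 2 of *pad2-1* or P-lim replicate 1 or 3 of WT (up to 0.0574 and 0.062), and that of *petL* with trend and robust estimation (0.0518).

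The mean over the 69 plastid genes was 10.38, 10.05 and 10.14 in the *pad2-1* MV arrays and 10.44, 10.31 and 10.35 in the P-lim arrays. MV replicate 1 overlapped with P-lim, and without it 24 of the 69 were called, whereas 4 were called without MV replicate 2 and 5 without P-lim replicate 1. None of 5 nuclear genes of photosystem and antenna proteins was called, with *PSBY* and *PSBS* at differences of 0.14 and 0.04 (95% intervals 0.0362 to 0.252 and -0.0544 to 0.131). The 95% intervals given here are per gene and not adjusted for the number of tests, unlike the calls. An interval that leaves out no difference, as for *PSBY*, is therefore not a call. Of 3 loci encoded in mitochondria, ATMG00690 and ATMG00640 were lower under MV (-0.45 and -0.37, adjusted p = 0.00152 and 0.00208 from limma).

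**Figure D5:**
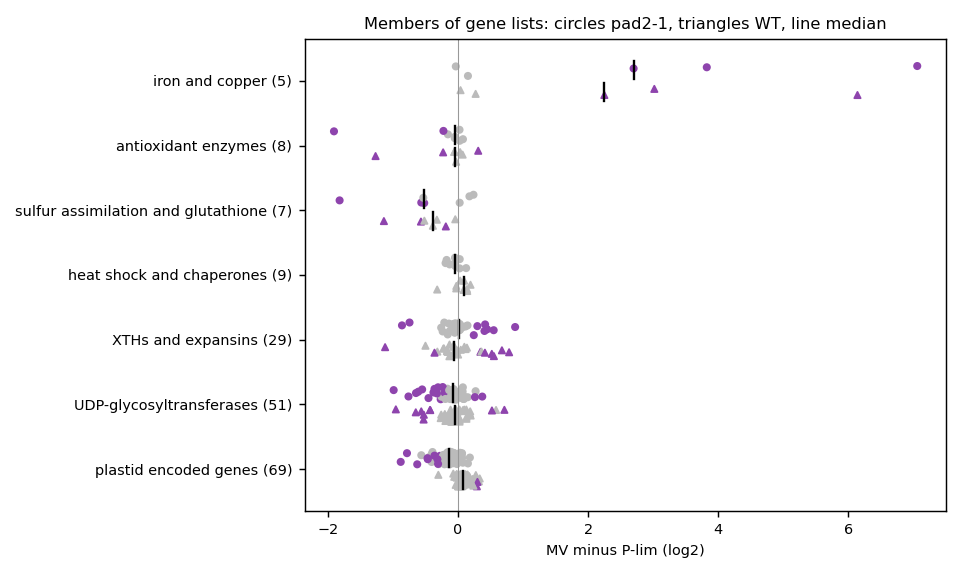
Differences of MV minus P-lim (log2, x axis) for the measured members of 7 gene lists (y axis, number of members in brackets) in *pad2-1* (circles) and WT (triangles), purple at an adjusted p under 0.05, with black lines at medians. The iron and copper list had a median of 2.70 in *pad2-1* and 2.25 in WT, and 59 of 69 plastid genes lay below 0 in *pad2-1* against 12 in WT.

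The heat shock list (32 listed) held no called member among those measured. Its 9 measured genes had a median of -0.0439, and the 95% intervals of all 9 lay within -0.526 and 0.745. In *pad2-1* the mean over the list was 5.16, 5.06 and 4.83 under MV and 5.10, 5.01 and 5.09 under P-lim. Both stresses were below the uneven unstressed *pad2-1* arrays (6.47, 6.06 and 5.54). In WT the group means of the list were 4.665 without stress, 4.846 under MV and 4.812 under P-lim, so they were not lower under stress there. In the mitochondrial stress list, AT5G51440 in *pad2-1* was at 5.12, 4.81 and 5.11 under MV and at 5.6, 5.31 and 6.14 under P-lim, far below 9.21, 9.21 and 8.31 without stress. In WT it was low without stress as well, at 4.26, 4.23 and 4.07. Its difference of -0.67 between the stresses in *pad2-1* (adjusted p = 0.0499 from limma) was lost without any 1 of the arrays except P-lim replicate 2 (up to 0.23). It was also lost with the 6 compared arrays alone (0.0588), trend and robust estimation (0.104), the median shift (0.0525), quantile normalization (0.0539) and the replicate block (0.07). *NDB2* (AT4G05020), a mitochondrial NAD(P)H dehydrogenase of that list, was lower under MV (-0.48, adjusted p = 0.00127 from limma), at 6.29, 6.16 and 6.28 against 6.52, 6.71 and 6.95 under P-lim and 6.71, 6.73 and 6.53 without stress.

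Few genes known for phosphate starvation could be followed by name. The ribonuclease gene *RNS2* (AT2G39780) differed by -0.17 and the listed transporter AT1G63010 by -0.19, both higher under P-lim (adjusted p = 0.0264 and 0.0345 from limma). The former call was lost without replicate 2 of either stress (up to 0.127), and the latter without any array except MV replicate 3 (up to 0.161). With the 6 compared arrays alone neither was called (0.164 and 0.121), and without the control arrays *RNS2* was not (0.0736). The regulators *SIZ1* and *LPR1* had differences of 0.04 and 0.11 that did not pass (95% intervals -0.0799 to 0.152 and -0.188 to 0.406). The other genes of these lists were not analysed here, since no probe set carried their name.

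In the remaining lists few genes were called. The clock gene *GI* and the beta-amylase gene *BAM5* were higher under MV by 0.38 and 0.95 (adjusted p = 0.0135 and 0.0316 from limma). The dehydrin gene *LTI30* and *ACX1*, an acyl-CoA oxidase gene of jasmonate synthesis, were lower under MV (-0.55 with adjusted p = 0.0294 and -0.38 with adjusted p = 0.000332, both from limma). The call of *GI* was lost without replicate 1 of either stress (up to 0.0653), that of *BAM5* without MV replicate 2 or 3 or P-lim replicate 1 or 2 (up to 0.136), and that of *LTI30* without replicate 2 or 3 of either stress (up to 0.146). With trend and robust estimation *BAM5* and *LTI30* were not called (0.083 and 0.069), and without the control arrays *BAM5* was not (0.0529). *MYB70* was lower under MV (-0.55, adjusted p = 0.000411 from limma), as were 3 of 13 early auxin genes (23.1%, beside 5.23% of all probe sets), led by *SAUR36* (-0.70, adjusted p = 0.000734 from limma). None of 9 flavonoid and anthocyanin genes and none of 3 phenylpropanoid genes was called. *DFR*, for dihydroflavonol reductase, was at 6.81, 6.87 and 6.99 under MV and at 6.999, 6.66 and 6.81 under P-lim, a difference of 0.07 with a 95% interval of -0.534 to 0.667.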

How the data were processed

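Total RNA of aerial parts was hybridized to ATH1 arrays, with extraction by Trizol according to the labels and by a column kit according to the methods. The deposited values are log2 intensities, which the authors made with RMA over all arrays (background correction, quantile normalization and 1 value per probe set); no version is given in the sources used here. They were used as deposited. Probe sets were named from the platform table and RefSeq, which gave 13631 a single gene, 503 several and 8612 none here. Group means were fitted with limma 3.58.1 in R 4.3.3 over the 18 arrays, with Benjamini-Hochberg adjustment over all 22746 probe sets, a two-sided test and 12 residual degrees of freedom. The genotype difference is the interaction term. The script was tested on simulated data. P-values rest on the spread between arrays within groups, pooled over the 6 groups and moderated by limma across probe sets. The 3 arrays per group limit the precision.

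A gene is represented by its probe set with the highest mean. Named are the 15 largest called differences each way, up to 4 members per list and direction with the smallest p, or the first measured members of a list where none passed, and the 5 largest genotype differences each way; other members and the unnamed probe sets were singled out after their values were seen. The members and the 42 lists (26 by locus and 16 families) were chosen with earlier results of these data known. Of 583 listed genes 85 were measured by name, 4 lists had no member, and 12 had no called member. Promoter motifs were not examined, since no sequence was at hand. Alternatives were the arrays in the fit, dim probe sets left out, other normalization, another variance estimate, the replicate number as a block, every probe set of a listed gene, and each array left out.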

Additional observations from a re-analysis of the deposited data

Results flagged for a closer look

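In each of the following genes the difference of MV minus P-lim differed between *pad2-1* and WT by the interaction test of limma, at an adjusted p under 0.05, and the log2 genotype difference (*pad2-1* minus WT) is given. *ZAT10*, AT4G27280 and *ORA47* had values of 1.8, 1.77 and 1.69. AT1G32920 had 1.11 (adjusted p = 0.0202 from limma), which was lost without *pad2-1* MV replicate 3, *pad2-1* P-lim replicate 2 or WT P-lim replicate 3 (up to 0.0632) and with trend and robust estimation (0.0517). AT3G19030 had 1.1, and AT3G05400 had -1.77. *BGLU28* and AT5G17340 had -1.49 and -1.39. AT5G20400 had -1.30 (adjusted p = 0.0286 from limma), with P-lim arrays of *pad2-1* at 4.52, 5.52 and 5.47 and MV arrays at 4.21, 3.92 and 4.10, and it was lost without any 1 of 8 arrays (up to 0.0873), with trend and robust estimation (0.0595) and with only the 12 compared arrays (0.0578). *PLA2A*, a patatin-like lipase gene, had -1.30 (adjusted p = 0.0321 from limma) and was lost without any 1 of 7 arrays (up to 0.0865) and with trend and robust estimation (0.0735). *APS4* had 0.62. *CYP71B23* had -1.06 (adjusted p = 0.0403 from limma) and was lost without any 1 of 9 arrays (up to 0.107), and with the median shift, trend and robust estimation, quantile normalization or only the 12 compared arrays (0.0569 to 0.0643). Of plastid genes, *petL* and *accD* had -1.21 and -0.68.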

How the results depend on the processing

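Of 100 genes followed, 79 were called, and none of these turned its direction under any setting run. Fits without the control or WT arrays, another variance estimate, the replicate block and leaving out dim probe sets keep the difference itself unchanged. Those settings could therefore not turn a direction. Of the 79, 54 were called without each of the 6 arrays and 25 were lost without at least 1. Adding the study's minimum log2 difference of 1 to the adjusted p gave 59 and 93 in *pad2-1*, 58 and 70 in WT and 13 and 30 for the genotype difference. With only the compared arrays in the fit, *pad2-1* had 645 higher and 787 lower, the genotype difference 70 higher, antioxidant genes 1 higher under P-lim and UDP-glycosyltransferases 0 higher under MV. With the dimmer 50% of probe sets left out, counts with a difference of 1 or more were 36 and 48 in *pad2-1* and 10 lower for the genotype difference, 38 probe sets higher under P-lim had unstressed values nearer to MV, and 8 UDP-glycosyltransferases were higher under P-lim. After each array was shifted to the same median, WT had 1757 lower and the genotype difference 163 higher and 124 lower, and with trend and robust estimation the latter had 170 higher. Sulfur genes had 1 higher under MV with dim probe sets left out, the median shift, trend and robust estimation or quantile normalization. Without the control arrays, a fit added after the data were seen, 1 UDP-glycosyltransferase was higher under MV, and 1 xyloglucan or expansin gene under P-lim, as with dim probe sets left out and with trend and robust estimation.

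Over the 15 pairs of groups, same-numbered deviations from group means correlated at -0.185 to 0.177. In some pairs all were positive, as for unstressed WT with unstressed *pad2-1* (0.0799 to 0.107). These are correlations over all probe sets, and a shared effect of the replicate number on single genes was not tested. In *pad2-1*, deviations of same-numbered MV and P-lim arrays correlated at -0.101, -0.0542 and 0.0461, and the highest correlations with another number were 0.124, 0.202 and 0.0753. With the replicate block *pad2-1* had 895 higher and 1111 lower, with antioxidant genes 1 higher under P-lim, and UDP-glycosyltransferases 1 higher under MV. Of the genes followed, AT5G07230, *CYP71B36*, *GR1*, AT5G51440, *OSM34*, *PLA2A*, *UGT74C1*, *UGT76C2* and the genotype difference of *BGLU28* lost their call with the block. The adjusted p became smaller for AT5G62080, AT5G52160, AT3G07450 and AT3G52130 (0.00374, 0.00436, 0.00255 and 0.0132 from limma), which were uneven among unstressed arrays.

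With each array left out, counts ranged in *pad2-1* from 601 to 903 higher and 747 to 1118 lower, or 53 to 64 and 71 to 128 with a difference of 1 or more, of which 41 to 49 and 62 to 109 had unstressed values nearer to MV. In WT they ranged from 978 to 1308 and 695 to 964, or 51 to 74 and 61 to 71. The genotype difference had 49 to 125 higher and 86 to 203 lower, both lowest without WT P-lim replicate 3, or 8 to 25 and 16 to 52 with a difference of 1 or more. Under P-lim, higher counts were 1 to 2 for antioxidant genes, 4 to 24 for plastid genes, 3 to 4 for sulfur genes, 7 to 12 for UDP-glycosyltransferases and 1 to 2 for xyloglucan and expansin genes. Under MV they were 3 for iron genes in every case, 0 to 1 for sulfur genes, 0 to 2 for UDP-glycosyltransferases and 4 to 7 for xyloglucan and expansin genes. Values near an array's lower quartile, as of AT1G47400 under P-lim, are close to background, so that such differences may be understated.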
